A study of Mus musculus with 8 samples.

Results

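Among 1729 exons of long intergenic noncoding RNAs on the array, 123 gave signal from a probe for each strand on every array, and they are described here. The array carries 3457 probes of this class, whose names hold a number for the exon and a plus or minus sign for the strand, as in MM9LINCRNAEXON10829+. For 1728 exons both strands have a probe. The exons were chosen by their measured signal. One was taken when the scanner software marked both its probes as well above background on all 8 arrays, which left 123 exons and 246 probes. The levels below are therefore a description. The rule asks for the same flag in both genotypes, and the difference between genotypes was not part of it. The lowest signal so marked was lower on knockout replicates 1, 2 and 3 than on any control array. The rule was thus not equally strict in both groups. Exons are called by their number below, and the signs are those of the names. The sources used here do not say whether a sign refers to the probe or to the RNA it binds.

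Long intergenic noncoding RNAs are transcripts of regions between protein-coding genes. Many are spliced and polyadenylated, and some act on chromatin or on the expression of nearby genes. RNA from both strands of one region is common in mammalian genomes, where promoters can fire in both directions and antisense transcripts can overlap a sense partner. A signal on both strands of an exon is therefore not in itself unusual, and each strand can be under separate control. In the heart, several noncoding RNAs arise opposite genes of contractile proteins. The probes carry no gene name, position or base sequence in the files, so none of the 123 exons is tied to a gene here and no sequence is shown.

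The series compared hearts in which Klf5, a Kruppel-like transcription factor, was deleted in cardiomyocytes with hearts that kept it. Male mice aged 8 to 12 weeks were used at basal state, 4 labelled aMHC-KLF5-/- and 4 floxed controls without Cre recombinase. aMHC names the cardiac myosin heavy chain promoter, which is active in cardiomyocytes, so other cells of the knockout heart should keep the gene. All 8 mice carried floxed Klf5, and Cre was present in the knockout group alone, so the deletion and Cre itself cannot be told apart. Total RNA of each whole heart was copied with random primers into Cy3-labelled cRNA and hybridised to 1 array. The labels do not state how strand was kept in that step.

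The number of probes well above background lay between 27806 and 31459 on control arrays and between 28103 and 43290 on knockout arrays. Knockout replicates 1, 2 and 3 lay above every control array in that number. Gene names could be given to probes only through accessions in the files, which matched 112 gene symbols in all. None of 21 fixed genes, markers of heart cell types and Klf5, was among them, so the tissue and the deletion were not checked here. Whether the array has probes for these genes under other names was not examined. In the code of array position, the first number was 1 for all controls and 2 for all knockout hearts. Position and genotype cannot be told apart.

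Signal on the second strand was the less common case. At least 1 strand was detected on all 8 arrays at 889 exons, and both were at 123 of them, or 13.8%. The remaining 766 had 1 strand only. The minus probe was detected at 26.0% of the 473 exons whose plus probe was detected, and at 33.1% of the 1255 exons whose plus probe was not. Detection of one strand thus did not go along with more frequent detection of the other. Split into 4 bins by the level of the brighter probe, the 889 exons had both strands in 4.04%, 14.0%, 16.7% and 20.7% of cases, from the dimmest bin to the brightest. The rule limits the dimmest bin by itself, since a weaker probe has little room there between the brighter probe and the detection limit, so nothing is read from this order.

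The list of 123 exons depends on the detection of dim probes. On single arrays both strands were well above background at 200 to 301 exons in controls and at 207 to 727 exons in knockout hearts. A further 40 exons missed the list by 1 array on 1 strand. Of these, 20 failed on control replicate 1 and 16 on knockout replicate 4, the arrays with the fewest probes above background. Just inside the list, exon 11508 had a minus probe as low as -2.82, exon 10825 one of -2.68 and exon 11385 a plus probe of -2.60. These values are log2 signals less the 75th percentile of their array, the scale used throughout, on which 0 is that percentile. Just outside it, exon 11399 failed on control replicate 1 at -2.26, exon 11267 on knockout replicate 4 at -2.33 and exon 10413 on control replicate 1 at -2.29. The lowest signal well above background differed between arrays, from -4.38 to -2.24, so members and near members overlap in level.

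One strand was usually much brighter than the other. The brighter probe of an exon had a median of 1.15 over the 123 exons, with a range from -1.70 to 8.93, and the weaker probe a median of -1.24, with a range from -2.27 to 3.39. At 76 of the 123 exons the weaker probe came within 1 log2 unit of the detection limit on at least 1 array, against 14 for the brighter probe. Across exons the mean levels of the brighter and the weaker probe had a Pearson correlation of 0.20 (n = 123 exons, all from the same 8 arrays).

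**Figure D1:**
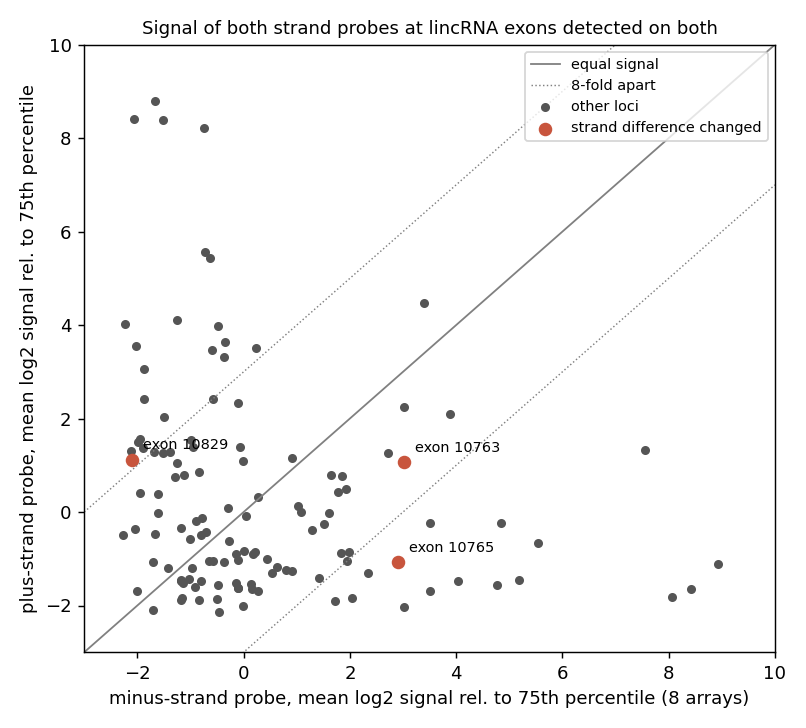
Mean log2 signal over 8 arrays of the plus probe (vertical axis) against the minus probe (horizontal axis) of each of the 123 exons, less the 75th percentile of each array. The weaker strand has a median of -1.24, 33 points lie within 2-fold of the equal-signal line, 40 lie beyond the 8-fold lines, and the 3 exons in red are those whose strand difference changed with genotype.

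The balance of the strands is given as the log2 signal of the plus probe less that of the minus probe on the same array. The value also holds how strongly each probe binds, so it is a ratio of signals and not of RNA. The plus probe was brighter at 54 exons and the minus probe at 69. The size of the difference had a median of 1.79, or 3.47-fold, with an interquartile range from 0.87 to 3.58. At 33 exons the probes lay within 2-fold of each other, at 50 between 2-fold and 8-fold apart, and at 40 at least 8-fold apart. Of these 40, the plus probe was the brighter at 23 and the minus probe at 17. With normexp background correction the median size was 1.40.

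The balance of most exons varied little between hearts. At 100 of 123 exons the same probe was brighter on all 8 arrays, and of the 23 exons where it varied, 19 were within 2-fold on average. The difference had a median SD of 0.37 over the 8 arrays. Mean differences in control and knockout hearts had a Pearson correlation of 0.99 across exons (n = 123, a description in which each exon keeps its own pair of probes). At 4 exons, 10344, 10821, 11369 and 11556, the brighter strand was not the same in the 2 group means. At each of these 4 the group SD of the difference was larger than at least 1 of the group means.

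At 7 exons the strands differed by more than 100-fold. Exon 10465 had plus signals of 8.41, 8.45, 8.38 and 8.48 in controls and 8.40, 8.45, 8.39 and 8.39 in knockout hearts. Its minus signals were -1.45, -2.45, -2.45 and -1.81 in controls and -1.98, -1.82, -2.40 and -2.21 in knockout hearts. The groups overlapped on both strands, and the mean difference was 10.49. Exons 11341, 10151 and 10504 were alike, with mean differences of 10.47, 9.91 and 8.97 in favour of plus. In the other direction stood exons 10608, 10315 and 12118, with -10.07, -10.04 and -9.89, and exon 10070 followed with -6.63, or 99.4-fold. The weaker strand of these 8 exons came within 1 log2 unit of the detection limit on at least 1 array, except at exon 10504. Its smallest margin was 0.05 at exon 10608, 0.06 at exon 10465 and 0.21 at exon 11341, but 1.49 at exon 10504. The minus probe of exon 10504 lay between -0.80 and -0.70 on all 8 arrays. With normexp correction the 7 differences were between 8.55 and 9.70 in size.

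At the other end, 4 exons had nearly equal signal from both probes. The mean difference was 0.06 at exon 10821, -0.13 at exon 10344, 0.22 at exon 11811 and -0.22 at exon 11950. The near balance of exon 10821 is an average of unlike hearts. Its plus probe lay between 0.11 and 0.65 on all 8 arrays. Its minus probe lay between -0.60 and -0.16 in controls and was -0.36, 1.77, 1.79 and 0.18 in the 4 knockout hearts. The minus probe was thus brighter than plus in knockout replicates 2 and 3 alone. The genotypes overlapped on that strand, and their difference did not pass (limma adjusted p = 0.611).

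Bright signal on both strands was seen at few exons. Both means were above the 75th percentile of the array at 15 of the 123 exons, and neither was at 37. Exon 11331 had the brightest weaker strand. Its plus signals were 4.72, 4.64, 4.60 and 4.59 in controls and 4.40, 4.92, 3.74 and 4.13 in knockout hearts. Its minus signals were 3.42, 3.35, 3.29 and 3.63 in controls and 3.43, 3.38, 3.22 and 3.41 in knockout hearts. The groups overlapped on both strands, and plus exceeded minus on every array. Exon 12026 had means of 2.28 ± 0.18 and 2.22 ± 0.27 on plus and 3.04 ± 0.25 and 3.01 ± 0.08 on minus in control and knockout hearts (SD, n = 4 each). Exon 10072 had 2.06 ± 0.20 and 2.14 ± 0.29 on plus and 3.78 ± 0.08 and 3.98 ± 0.16 on minus. Exon 10974 paired a plus probe at 1.21 ± 0.06 and 1.43 ± 0.17 with a minus probe at 7.55 ± 0.08 and 7.58 ± 0.08. The genotypes overlapped on both strands of these 3 exons.

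The comparison of genotypes asked whether loss of Klf5 in cardiomyocytes went along with a change on either strand. A single probe of the 246 passed at an adjusted p under 0.05 over all 27878 tested probes in limma, the plus probe of exon 10829, which rose. Of all tested probes 0.14% passed, and of the 24341 well above background on all 8 arrays 0.0493% did. Taking an unadjusted p under 0.05, 10 of 246 had higher and 10 had lower signal in knockout hearts, or 4.07% each way. All tested probes gave 5.37% higher and 2.69% lower. Those well above background on all 8 arrays, as the members are, gave 3.53% higher and 2.58% lower. The 2 counts were 7 higher and 16 lower with median centring, 14 and 8 with the 75th percentile of probes detected throughout, and 5 and 4 with no signal filter. Without knockout replicate 4 there were 5 higher, and without control replicate 3 there were 6 lower. The split between directions thus moved with the scaling, and nothing is read from it. The median difference was 0.01 over the 246 probes and 0.00 over all tested probes. By the same p, 5 brighter probes were higher and 10 lower, and 5 weaker probes were higher and 0 lower. The detection limit was lower on knockout arrays 1, 2 and 3, at -3.14, -4.38 and -3.70, than on any control array, and its part in these counts was not tested. Where signal differs, fewer cells of a type and less RNA per cell cannot be told apart in whole-heart RNA.

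Exon 10829 held the clearest change. Its plus probe read -0.29, -0.22, 0.17 and 0.20 in controls and 1.92, 2.28, 2.25 and 2.62 in knockout hearts. Every knockout heart was far above every control. The means were -0.03 ± 0.26 and 2.27 ± 0.28 (SD, n = 4 each), a log2 difference of 2.30 with an SE of 0.18, or 4.93-fold (limma adjusted p = 0.00186). In processed intensity this was 274 to 357 in controls against 1147 to 2141 in knockout hearts, before any scaling. Its minus probe read -2.20, -1.05, -2.52 and -2.04 in controls and -2.29, -2.18, -2.31 and -2.16 in knockout hearts. These groups overlapped, and its smallest margin over the detection limit was 0.04. The rise on plus was called under each of the 18 alternative settings and single-array omissions, with log2 differences from 2.11 to 2.42.

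A second fit tested the strand difference itself, plus less minus on each array, which no scaling of an array by 1 number can alter. It ran over 191 exons whose probes were both tested, the 123 and others with a probe detected throughout in only 1 group. Of the 123 exons, 3 changed with genotype at an adjusted p under 0.05 in limma, against 2.09% of the 191, which include them. They were exons 10829, 10765 and 10763. At exon 10829 plus exceeded minus by 1.91, 0.83, 2.69 and 2.25 in controls and by 4.22, 4.47, 4.56 and 4.78 in knockout hearts. The change was 2.59 with an SE of 0.38 (limma adjusted p = 0.0083), and the groups did not overlap.

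Exon 10763 was bright on both strands and changed toward minus. Its minus probe read 1.01, 2.49, 1.90 and 2.44 in controls and 3.68, 3.89, 4.18 and 4.59 in knockout hearts, so every knockout heart was above every control. Its plus probe read 1.08, 1.09, 0.77 and 0.95 in controls and 1.04, 1.07, 1.05 and 1.43 in knockout hearts, where the groups overlapped. In control replicate 1 the strands were about equal, with a difference of 0.07. In the other controls the difference was between -1.49 and -1.13, and in knockout hearts it was between -3.15 and -2.64. The change of the strand difference was -1.95 with an SE of 0.35 (limma adjusted p = 0.0198). The minus probe alone had a log2 difference of 2.12 and did not pass over all tested probes (limma adjusted p = 0.103).

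Exon 10765 changed toward plus, on its weaker strand. Its plus probe read -1.96, -1.52, -1.60 and -1.31 in controls and -0.64, -0.62, -0.65 and -0.31 in knockout hearts. The groups did not overlap, and knockout replicate 4 was the highest. The smallest margin of this dim probe over the detection limit was 0.28. Its minus probe read 2.85, 2.82, 2.85 and 3.12 in controls and 3.06, 2.76, 2.69 and 3.12 in knockout hearts, with means of 2.91 ± 0.14 and 2.91 ± 0.21 (SD, n = 4 each). The strand difference went from -4.51 ± 0.20 to -3.46 ± 0.16, a change of 1.05 with an SE of 0.19 (limma adjusted p = 0.0198). The plus probe alone had a log2 difference of 1.04 and just missed the threshold (limma adjusted p = 0.067). Over the alternative settings and omissions its difference ranged from 0.67 to 1.14, and the change of the strand difference from 0.65 to 1.12.

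The calls at exons 10763 and 10765 are less secure than that at exon 10829. Without control replicate 3, or without knockout replicate 2, 3 or 4, both lost the call (limma adjusted p from 0.0689 to 0.0908) and exon 10829 alone passed, and without knockout replicate 1 exon 10763 lost it too (0.0571). Without a signal filter, which brings 1728 exons into the fit, none of the 3 passed (limma adjusted p = 0.0918 for exon 10829, 0.203 for exon 10765 and 0.168 for exon 10763).

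**Figure D2:**
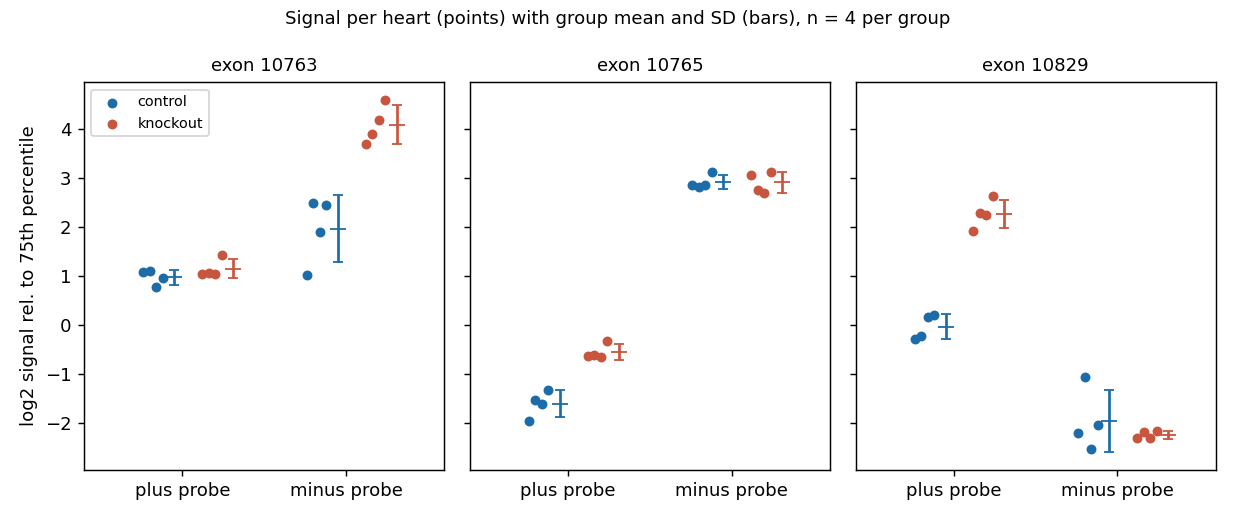
Log2 signal, less the 75th percentile of each array, in each heart for the plus and minus probes of exons 10763, 10765 and 10829, with the group mean and SD beside the points (n = 4 per group). One strand of each exon has knockout hearts above all controls, the minus strand at exon 10763 and the plus strand at exons 10765 and 10829, while the groups overlap on the opposite strand.

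**Figure D3:**
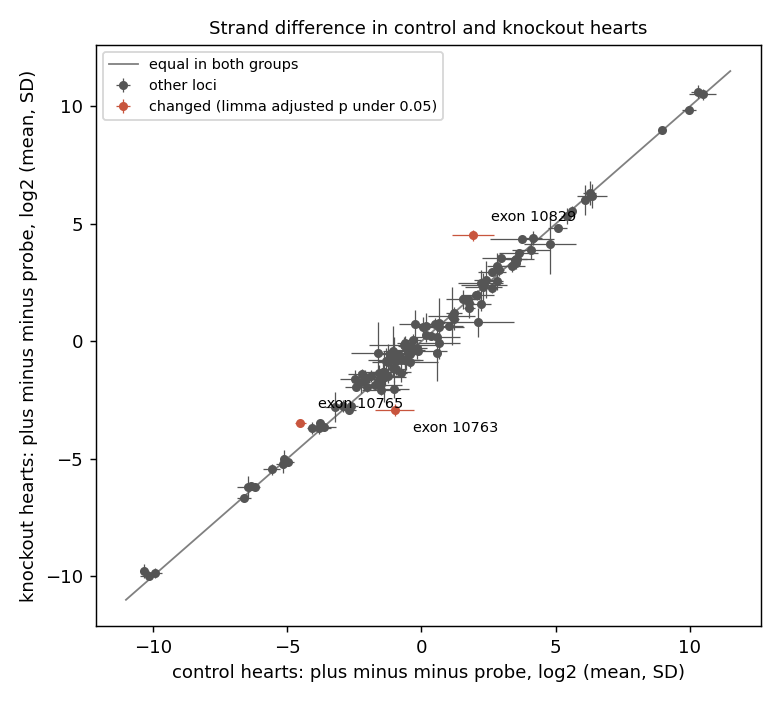
Log2 signal of the plus probe less that of the minus probe in knockout hearts (vertical axis) against control hearts (horizontal axis) for the 123 exons, as mean and SD (n = 4 each). Points follow the line of equality (Pearson r = 0.99), and exons 10829 and 10765 lie above it and exon 10763 below it.

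Further exons had groups that did not overlap without passing the adjustment. Over the 246 probes the groups did not overlap at 6 with higher and 3 with lower values, or 3.66%. Over all tested probes the share was 4.09% higher and 1.66% lower, 5.75% in all, and among probes well above background on all 8 arrays it was 4.38%. Beside exons 10829, 10765 and 10763, the higher ones were the plus probes of 3 exons. Exon 10315 plus went from -1.36 ± 0.04 to -0.86 ± 0.31, exon 11556 plus from 0.92 ± 0.29 to 1.39 ± 0.17 and exon 10991 plus from -1.46 ± 0.13 to -1.14 ± 0.18 (SD, n = 4 each). None of the 3 passed (limma adjusted p = 0.475, 0.539 and 0.56). Exon 10315 is among those with strands over 100-fold apart. Its weak plus strand read -1.31, -0.67, -0.66 and -0.79 in knockout hearts, so the first of these was near the controls, while its bright minus strand lay between 8.82 and 9.07 throughout.

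The probes with lower values were the minus probes of exons 10484 and 10571 and the plus probe of exon 11156. Exon 10484 minus read 0.25, 0.18, 0.00 and 0.22 in controls and -0.24, -0.49, -0.27 and -0.85 in knockout hearts, a log2 difference of -0.62 with an SE of 0.15 (limma adjusted p = 0.302). Its plus probe spread from -2.20 to 0.17 among knockout hearts, and its strand difference did not change detectably (limma adjusted p = 0.663). Exon 10571 minus went from 1.91 ± 0.10 to 1.64 ± 0.08 (limma adjusted p = 0.524, n = 4 each), and exon 11156 plus from -0.96 ± 0.12 to -1.08 ± 0.03 (limma adjusted p = 0.729, n = 4 each).

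In the strand fit the groups did not overlap at 8 of the 123 exons, or 6.50%, against 7.85% of the 191. At an unadjusted p under 0.05, 12 of the 123 differed, or 9.76%, against 10.5% of the 191. The 191 include the 123, and the others entered with a probe detected throughout in 1 group only, so they are not a like set. Outside the 3 that passed, exon 10893 moved toward plus by 0.82 with an SE of 0.29 (limma adjusted p = 0.339), and exon 10900 by 0.64 with an SE of 0.29 (limma adjusted p = 0.403). At exon 10900 the value of control replicate 1, -2.04, stood apart from the other controls, at -0.98 to -0.79. That array stood apart at further exons, in both directions. In processed intensity the minus probe of exon 11060 read 318 there, against 849 to 1039 in the other controls. The minus probe of exon 10217 read 644 there, against 86 to 156. How often each array stood apart over the 123 exons was not tested. Toward minus, exon 10451 moved by -1.04 with an SE of 0.31 (limma adjusted p = 0.3) and exon 11385 by -0.61 with an SE of 0.23 (limma adjusted p = 0.358). The value of exon 10451 leans on control replicate 4, whose minus probe read -1.58 while the other controls lay between -0.09 and 0.07.

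No joint movement of the strands of one exon was seen, and how readily the values could show one was not tested. Over the 246 probes the genotype difference had a median size of 0.13 and a median SE of 0.15. The weaker probe came within 1 log2 unit of the detection limit at 76 exons. The SE comes from the spread between hearts, which holds differences between hearts as well as measurement error. How far measurement error lowered the correlations below was not measured, so whether the strands are linked is not settled here. The log2 differences between genotypes on plus and on minus had a Pearson correlation of -0.09 across the 123 exons, and of -0.11 without the 3 whose balance changed. Both strands were higher at 30 exons and both lower at 24, while at 69 they had opposite signs. Single hearts showed the same. Deviations of each heart from its group mean on plus and on minus had a pooled correlation of 0.03, and between -0.14 and 0.14 on single arrays. For comparison, 73 pairs could be made of a member probe and a probe of the next number on the same strand, also above background on all 8 arrays. In these pairs, which were not matched to the strand pairs in level, the deviations had a correlation of 0.23 and the genotype differences one of 0.10. All such values share the same 8 arrays and are descriptions. Among 11 pairs of member exons with consecutive numbers, 4 had the same brighter strand.

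Large differences lay close together in the numbering. In all, 4 of the 246 probes differed by more than 2-fold between genotypes, or 1.63%, against 2.64% of all tested probes. The latter include probes detected throughout in only 1 group. Of tested probes well above background on all 8 arrays, as the members are, 0.82% differed as much. Of the other lincRNA exon probes well above background on all 8 arrays, 1.70% did. The 4 probes are thus not fewer than in a like set. The 4 were the plus probes of exons 10765 and 10829 and the minus probes of exons 10763 and 10821. All 4 numbers lie between 10763 and 10829, a span that holds 9 of the 123 exons and 18 of the probes, and 0 of the other 228 member probes differed as much. The span was chosen after the values were seen, so its count has no test. Exons outside the list give a comparison. Of 25 other exon probes in the span that were above background on all 8 arrays, 1 differed by more than 2-fold, or 4%. Of 740 outside it, 12 did, or 1.62%. At an unadjusted limma p under 0.05 the shares of these other probes were 8% inside and 8.92% outside, so they do not bear out the span. The 1 beyond 2-fold inside it is the plus probe MM9LINCRNAEXON10814+, with a log2 difference of 2.40 that did not pass (limma adjusted p = 0.199). MM9LINCRNAEXON10814 was also the fourth exon called in the strand fit, with a change of 3.50 and an SE of 0.49 (limma adjusted p = 0.0083). Its minus probe failed the detection rule on knockout replicate 4, at -2.70, and so entered the fit through the control group alone. The strand change was larger than the change on plus, so minus was lower in knockout hearts. That probe thus passed the filter through the group where it was higher, and the call adds nothing to the count in the span. The sources used here do not say what order the numbers follow.

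**Figure D4:**
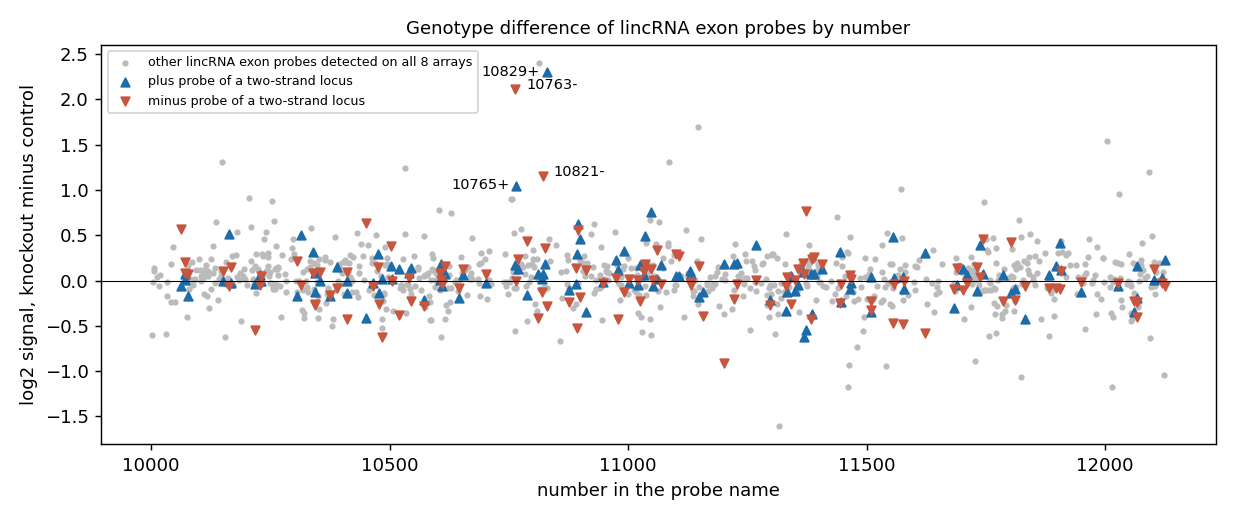
Log2 signal in knockout less control hearts against the number in the probe name, for plus probes (blue) and minus probes (red) of the 123 exons and for other exon probes above background on all 8 arrays (grey). The 4 member probes beyond 2-fold carry the numbers 10763, 10765, 10821 and 10829, and all other member probes lie within 2-fold.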

How the data were processed

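The deposited scanner files give spot intensity with background correction by Agilent Feature Extraction 11.0.1.1, per the file headers and the submitters' processing notes, without scaling between arrays. Flags of detection and outliers come from the same files. The authors' value table, on a log2 scale, holds no lincRNA exon probe and served as an alternative for all probes alone. From the log2 of processed intensity, the 75th percentile of each array over 59709 non-control probes was subtracted. Outlier spots were dropped, of which 0 fell on member probes, and no member spot was saturated. A probe was tested with at least 3 usable arrays per group and detection on all usable arrays of 1 group or both. Genotypes were compared in limma 3.58.1 (R 4.3.3), and p-values were adjusted by Benjamini-Hochberg over all tested probes, or over 191 exons for the strand difference. The fits were also run on simulated data with independent normal values per probe. Those data hold no array effect, detection limit or link of array position with genotype, so the run says nothing on these. The number of arrays limits the precision. Members, lists and tests were chosen with earlier results of these data known. Exons named were those called, up to 6 probes per direction with the smallest p whose groups do not overlap, up to 4 exons per direction in the strand fit, 4 exons at each extreme of balance and of weaker-strand signal, and 3 on each side of the detection rule. Exons 10217, 11060, 11369 and MM9LINCRNAEXON10814 were named after their values were seen. Alternatives covered background correction, scaling, filters, outlier flags, a replicate block, variance models and omission of each array.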

Additional observations from a re-analysis of the deposited data

Results flagged for a closer look

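Of 170 sets of 4 values, 10 held a highest or lowest value set apart from the remaining 3 by most of the range. Independent normal values would give about 8.5. Nearly all sets come from exons named for their values, and strand differences reuse the probe values, so that rate is a rough guide only. Knockout replicate 4 was the high array in 4 of the 10 sets, at 2.571 for exon 10072 plus, 1.433 for exon 10763 plus, -0.3139 for exon 10765 plus and 0.6504 for exon 10821 plus. The other knockout hearts had 1.947 to 2.037, 1.044 to 1.065, -0.6505 to -0.6161 and 0.2325 to 0.2786. Knockout replicate 2 was high at exon 10465 plus, at 8.45 against 8.386 to 8.395. Control replicate 4 was high at exon 10765 minus, at 3.118 against 2.823 to 2.851, and low at exon 10451 minus, at -1.583 against -0.08824 to 0.06677. Control replicate 3 was low at exon 12026 plus, at 2.015 against 2.353 to 2.383. Of strand differences, exon 10900 had -2.042 in control replicate 1 against -0.9829 to -0.7906, and exon 11331 had 0.9604 in control replicate 4 against 1.297 to 1.304.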

How the results depend on the processing

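The number of exons with both strands was 394 with the flag for positive and significant signal, 188 with detection on all arrays of at least 1 group, 165 with detection on 7 of 8 arrays, and 123 to 144 when 1 array was left out. The median size of the strand difference was 1.40 with normexp correction and between 1.78 and 1.83 over the omissions. Calls among all tested probes ran from 28 to 79 over the omissions, with 79 without control replicate 1 and 73 without knockout replicate 4. They were 11 when only probes detected throughout were tested, a smaller set, and 22 in the authors' value table. Calls among the 246 probes were 1 under every scaling, filter and variance setting and 1 to 2 over the omissions. The second was exon 10763 minus without control replicate 1 (limma adjusted p = 0.0493). Changed strand differences among the 123 exons numbered 0 with no signal filter, where the cause was not tested, and 1 to 3 over the omissions. The replicate numbers do not pair the hearts by the labels. Same-numbered hearts had correlations of their deviations from -0.05 to 0.36, and 5 of 8 arrays correlated best with their own number. With the replicate block 34 of all tested probes, 1 of the 246 and 2 of the 123 exons were called, and exon 10765 was not (limma adjusted p = 0.064). The change of exon 10571 in strand difference turned from 0.06 to -0.13 without control replicate 3 and to -0.24 without control replicate 4, with 0.50 as its highest value, and that of exon 11156 turned from 0.26 to -0.07 without control replicate 3 and to -0.20 without knockout replicate 4, with 0.58 as its highest. The authors' table gave no value for the exons. Settings added after the data were seen were values raised to the detection limit, with 35 calls, a strand fit over the 123 exons alone, with 3, and the omission of arrays for the number of exons.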
